A study of Homo sapiens with 80 samples.

Results

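The 8 genes that encode the troponin subunits TNNT2, TNNT1, TNNT3, TNNI1, TNNI2, TNNI3, TNNC1 and TNNC2 were followed through the differentiation of human pluripotent stem cells to cardiomyocytes. They were chosen by name from the 43388 genes of the deposited tables, and all 8 were listed there. In both experiments of the study, CHIR99021, which activates WNT signalling, was given on day 0. IWP2, which blocks WNT secretion, followed on day 2 for WTC11 or day 3 for the other lines, and medium with insulin from day 6 or 7. The class, high or low purity, was given by flow cytometry on day 16 from the share of cells that stained for cardiac troponin T, the protein of TNNT2; those percentages are not analysed here. TNNT2 RNA on day 16 is therefore not independent of the class.

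The multi-omic experiment held 56 poly(A) RNA libraries, each from a culture well of the induced pluripotent line WTC11. All 25 high purity libraries stem from 1 differentiation of passage 52 cells, and all 31 low purity libraries from 1 differentiation of passage 69 cells. Class, passage and differentiation cannot be told apart there, and p-values measure only the spread between wells. There were 4 wells of each class on days 0, 2, 4 and 6. Later, high purity was sampled in 3, 1, 2 and 3 wells on days 8, 10, 13 and 16. Low purity had 4 wells on each of these later days except day 16, with 3. The RNA-only experiment held 24 total RNA libraries of 3 lines, with 1 library for each line, class and step. The multi-omic libraries held 6579715 to 18143597 reads and the RNA-only libraries 17990882 to 40357968. H9 is an embryonic stem cell line, whose high purity cells were of passage 58 and low purity cells of passage 55. For IMR90-4, an induced pluripotent line, the passages were 55 (high) and 75 (low), and for WTC11 they were 81 (high) and 69 (low). The 4 steps were day 0, day 2 (WTC11) or 3, day 4 or 5, and day 6 or 7.

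Troponin is the calcium switch of striated muscle and sits on the actin thin filament in units of troponin T, I and C. Troponin T anchors the complex to tropomyosin, troponin I holds back the interaction of actin and myosin at low calcium, and troponin C binds calcium and releases that block. Each subunit has genes named for the muscle in which they prevail. TNNT2 is the cardiac, TNNT1 the slow skeletal and TNNT3 the fast skeletal troponin T. TNNI3 is the cardiac, TNNI1 the slow skeletal and TNNI2 the fast skeletal troponin I, and the heart is known to use TNNI1 before birth and TNNI3 after it. TNNC1 serves heart and slow muscle, and TNNC2 serves fast muscle.

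The genes lie partly in pairs. On GRCh38, TNNT2 (chromosome 1, 201359014 to 201377680) and TNNI1 (chromosome 1, 201403784 to 201421730) are 26.1 kb apart with 1 protein-coding gene, LAD1, between them. TNNT1 (chromosome 19, 55132698 to 55149206) and TNNI3 (chromosome 19, 55151767 to 55157732) are 2.56 kb apart with none between. TNNI2 (chromosome 11, 1838981 to 1841678) and TNNT3 (chromosome 11, 1919552 to 1938702) are 77.9 kb apart. TNNC1 is on chromosome 3 (52451100 to 52454041) and TNNC2 on chromosome 20 (45823214 to 45833306). TNNI1 overlaps the non-coding gene LOC101929343, which reached at most 13.5 TPM (the deposited transcript abundance, corrected for gene length and scaled to the library) in any multi-omic library.

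TNNT2, TNNI3 and TNNT1 were the only members among the RefSeq promoters used, and their promoter stretches are shown. Each is the 250 bases before the RefSeq start site (GRCh38.p14), 5′ to 3′ on the gene's strand, which is the minus strand for all of them. Capitals mark the M-CAT core CATTCC, a site class bound by TEAD factors, and the GATA core GATAA, read on either strand and so printed as TTATC where it lies on the other strand. The stretches lie at chr1:201377681-201377930 for TNNT2, chr19:55157733-55157982 for TNNI3 and chr19:55149207-55149456 for TNNT1.
TNNT2: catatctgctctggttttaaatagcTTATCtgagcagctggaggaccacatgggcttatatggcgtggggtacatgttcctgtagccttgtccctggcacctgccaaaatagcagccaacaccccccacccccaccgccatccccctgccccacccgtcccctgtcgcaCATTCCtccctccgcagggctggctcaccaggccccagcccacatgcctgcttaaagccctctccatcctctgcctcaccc
TNNI3: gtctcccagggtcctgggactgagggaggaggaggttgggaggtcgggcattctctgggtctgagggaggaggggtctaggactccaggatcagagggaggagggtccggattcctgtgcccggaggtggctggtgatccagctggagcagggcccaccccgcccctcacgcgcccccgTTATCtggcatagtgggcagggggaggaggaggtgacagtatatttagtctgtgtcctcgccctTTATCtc
TNNT1: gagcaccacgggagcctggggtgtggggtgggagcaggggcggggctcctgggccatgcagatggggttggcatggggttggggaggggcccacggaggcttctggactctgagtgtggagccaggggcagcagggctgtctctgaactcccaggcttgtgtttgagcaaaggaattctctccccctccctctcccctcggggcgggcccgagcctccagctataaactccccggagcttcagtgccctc

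The TNNT2 stretch held 1 M-CAT core, 81 to 76 bases before the start, and 1 GATA core, 225 to 221 bases before it. The TNNI3 stretch held GATA cores at 71 to 67 and at 7 to 3 bases before the start and no M-CAT core. TNNT1 held neither. The E-box CANNTG, the site class of basic helix-loop-helix factors, was found 4 times before TNNT2 and 1 time each before TNNI3 and TNNT1. These letters are common: of 27305 promoters of the same length, 11.9% held the M-CAT core, 21% the GATA core and 62.2% an E-box on either strand. The MEF2 site and the CArG box, searched by name and present in 2.90% and 1.14% of promoters, were not matched in these 3 windows. The RefSeq promoters used held no entry for the other 5 members.

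In the 56 multi-omic wells TNNT2 spanned 0 to 3702 TPM, TNNC1 1.17 to 1442 TPM, TNNI1 0 to 823 TPM, TNNI3 16.4 to 290.1 TPM and TNNT1 17.6 to 146 TPM. These 5 genes reached a mean of at least 10 TPM in some group of wells. The fast skeletal genes were barely read: TNNC2 had 0 to 23 reads per well, TNNI2 0 to 12 and TNNT3 0 to 32, which is at most 4.68, 3.71 and 2.86 TPM. Together the 8 genes made up 0.00761% to 0.0121% of all TPM on day 0 and 0.171% to 0.587% on day 16.

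**Figure D1:**
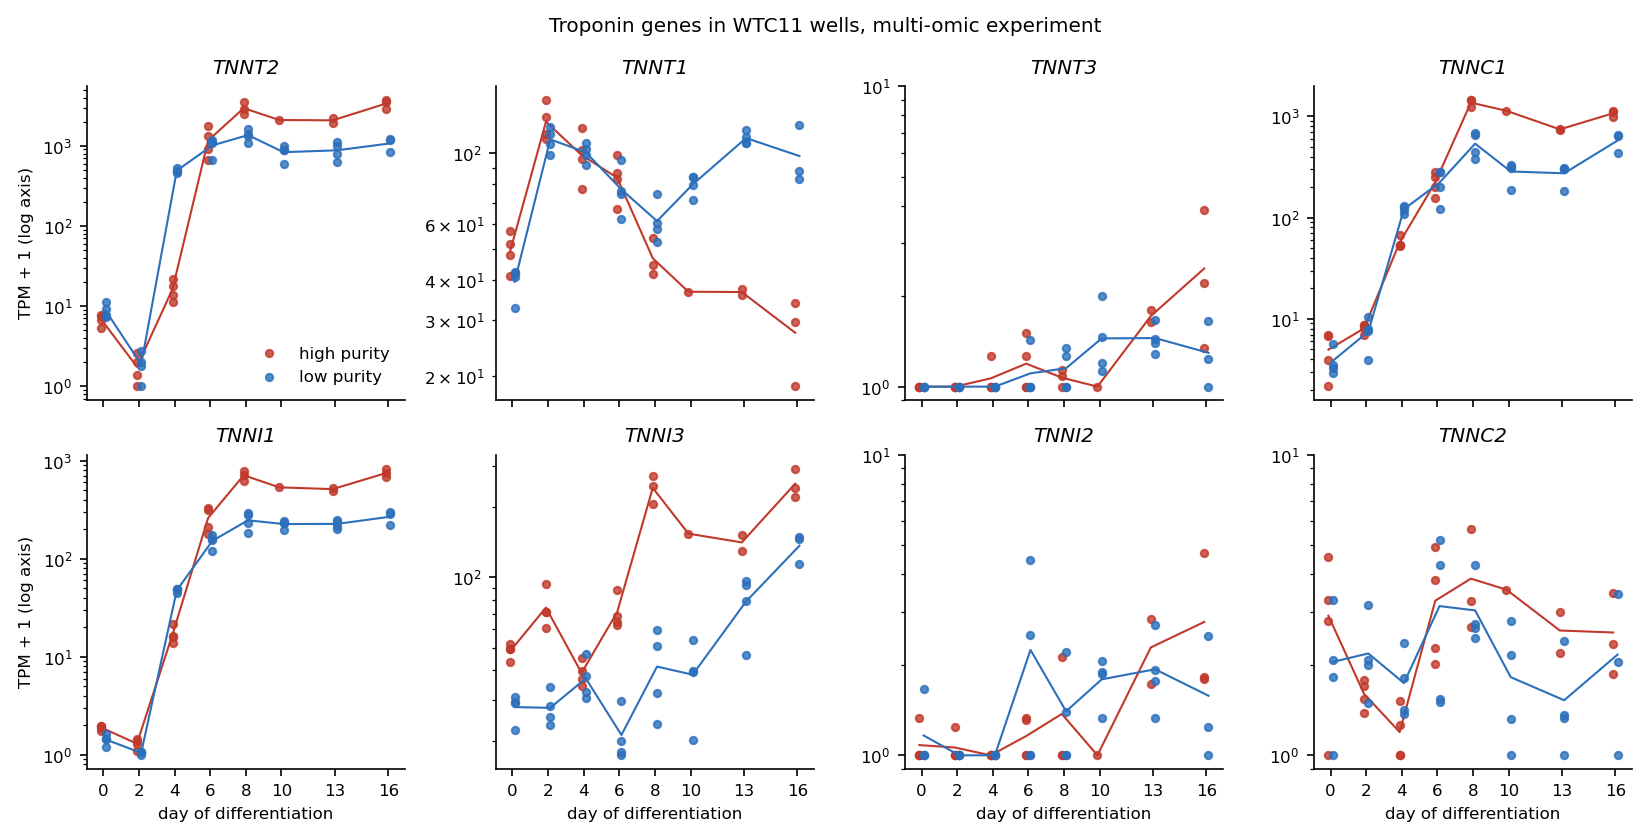
TPM + 1 on a log axis against day for each multi-omic well of the 8 troponin genes; points are wells, lines join group means, red is high and blue is low purity. TNNT2, TNNI1 and TNNC1 climb from day 4 in both classes, TNNT1 parts after day 8, and TNNT3, TNNI2 and TNNC2 stay under 5 TPM.

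The first change of TNNT2 was a fall. On day 0 TNNT2 stood at 4.37, 5.62, 6.49 and 6.64 TPM in the high purity wells and at 6.69, 10.1, 8.05 and 6.29 TPM in the low purity wells. On day 2, after the WNT activator, it was at 0 to 1.58 TPM in high and 0 to 1.71 TPM in low purity wells, below every day 0 well. The change from day 0 was −2.08 ± 0.27 (log2 fold change on log2(TPM + 1) ± SE) in high purity with a limma adjusted p of 8.26e-09, and −2.44 ± 0.27 in low purity with an adjusted p of 1.51e-10. TNNT1 did the opposite and reached 110 to 146 TPM in high and 98.1 to 120.1 TPM in low purity wells, from 40.1 to 56.1 and 31.8 to 41.6 TPM on day 0. Its log2 change was 1.31 in high and 1.33 in low purity (limma adjusted p 4.15e-10 and 3.05e-10). A gene is called here at a Benjamini-Hochberg adjusted p under 0.05 over all 25664 genes tested together with a log2 fold change of at least 1 in size. All changes from day 0 within a class share the day 0 wells. On that rule 2 of 8 members were called on day 2 in each class, beside 16.7% of all genes in high and 17.9% in low purity. TNNI1 was near 0 on both days, at most 35 reads per well. With a pseudocount of 0.1 in place of 1, TNNI1 (lower) and TNNC1 (higher) were also called in high purity on day 2, which made 4. TNNI1 was then called lower in low purity too (−1.95). With edgeR on reads recovered from the TPM it was called lower in both classes (−1.59 in high, −3.27 in low).

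By day 4, 2 days after the WNT inhibitor, TNNT2, TNNI1 and TNNC1 were above day 0 in both classes. TNNI1 rose by 3.03 ± 0.14 in high and 4.95 ± 0.14 in low purity, and TNNC1 by 3.53 ± 0.29 and 4.85 ± 0.29 (log2, SE). TNNT2 rose by 1.10 ± 0.27 in high and 5.62 ± 0.27 in low purity, with limma adjusted p of 6.08e-04 and 2.05e-22. The small TNNT2 rise in high purity fell under the call with a pseudocount of 0.1 (adjusted p 0.0544) and without high purity well 1 of day 0 (0.98) or well 4 of day 4 (0.94). TNNC2 was called lower in high purity (−1.17) from at most 10 reads a well, a call lost without well 1 or well 4 of day 0. TNNT1 passed in low purity at 1.14 and not in high at 0.84. In all, 4 of 8 members were called on day 4 in each class, beside 18.5% of genes in high and 22.2% in low purity.

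The same trio kept climbing on day 6 and day 8. On day 6 the log2 change from day 0 was 7.12 for TNNT2, 6.87 for TNNI1 and 5.39 for TNNC1 in high purity, and 6.57, 6.55 and 5.59 in low purity. These were the 3 of 8 members called on day 6 in each class, beside 23.5% of genes in high and 27.7% in low purity. On day 8 high purity added TNNI3, at 2.32 ± 0.26 (limma adjusted p 7.36e-11), for 4 of 8 members beside 26.8% of genes. Low purity stayed at 3 of 8 members beside 29.9%, with TNNI3 at 0.22 ± 0.24 (limma adjusted p 0.438).

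By day 16 the log2 change from day 0 in high purity was 9.20 for TNNT2, 8.89 for TNNI1, 8.15 for TNNC1 and 2.60 for TNNI3. In low purity it was 6.89, 7.59, 7.24 and 2.24. The fifth gene called in low purity was TNNT1, at 1.24 ± 0.16 (limma adjusted p 6.97e-09), while TNNT1 stood at −0.68 in high purity. High purity also called TNNI2 and TNNT3, whose day 16 wells held 3 to 12 and 3 to 32 reads. TNNT3 reached 1 TPM in 3 of 56 wells, high purity wells 2 and 3 of day 16 and a low purity well of day 10. It thus passed the filter (1 TPM in 3 libraries) mainly through the group where it is high, so its calls are no support for a rise. Without well 2 of day 16 the count was 4, with TNNI2 under the fold threshold and TNNT3 not tested, and without well 3 it was 5, with TNNT3 not tested. This gave 6 of 8 members in high purity beside 35.4% of genes, and 5 of 8 in low purity beside 34.1%.

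On day 13 the means of TNNT2, TNNI1 and TNNC1 were below those of day 8 and day 16 in both classes, a dip that was not tested. Mean TNNT2 on days 8, 13 and 16 was 2952, 2080 and 3375 TPM in high and 1361, 878 and 1073 TPM in low purity. For TNNC1 it was 1368, 744 and 1074 TPM in high and 537, 273 and 576 TPM in low purity. From day 8 to day 16 the levels of TNNT2, TNNI1 and TNNC1 were not called different in either class, with log2 changes from −0.13 to 0.41. In low purity TNNI3 rose by 2.02 ± 0.26 (limma adjusted p 1.31e-08), from 22.6 to 58.7 TPM up to 113 to 148 TPM, and it was the 1 member of 8 called, beside 6.39% of genes. Without low purity well 3 of day 16, TNNT1 was called as well, at 1.00 in place of 0.89. In high purity 2 of 8 were called, beside 11.4% of genes, and both were low-read genes: TNNT3 (1.23), with the same limit of the filter, and TNNI2 (1.08). That count was 1 with edgeR on reads recovered from the TPM and 0 to 2 when wells were left out. The lowest count came without high purity well 2 of day 16. It was 1 without high purity well 3 of day 16 or wells 1 or 2 of day 8.

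Of the class differences measured for the members, that of TNNT2 on day 4 was the largest, and it ran against the purity label. TNNT2 stood at 17.0, 12.9, 10.3 and 20.8 TPM in high purity wells and at 489, 486, 457 and 524 TPM in low purity wells. All 4 low purity wells lay above all 4 high purity wells, with a mean 32.1 times higher. High minus low came to −4.95 ± 0.27 (log2, SE) by limma, adjusted p 1.55e-19. The two-sided exact permutation p on TPM was 0.0286, the smallest that 4 wells against 4 allow. TNNI1 stood at 15.4, 12.7, 14.9 and 20.5 TPM in high and 43.3, 47.2, 48.4 and 47.6 TPM in low purity wells, with no overlap and a difference of −1.51 ± 0.14 on the log2 scale (limma adjusted p 6.18e-12). TNNC1 stood at 52.7, 52.0, 66.3 and 52.4 TPM against 127, 108, 117 and 128 TPM, again with no overlap, at −1.09 ± 0.29 (limma adjusted p 0.00218). TNNI3 (0.10) and TNNT1 (−0.04) were not called and their wells overlapped. In all, 3 of 8 members were called on day 4, beside 7.84% of genes. Separation of wells by class was not counted over all genes, so here and on other days it only describes the values.

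The day 4 difference was gone on day 6. TNNT2 then stood at 1335, 916, 656 and 1751 TPM in high and 1123, 1179, 1074 and 672 TPM in low purity wells, and the wells overlapped. The classes differed by 0.12 ± 0.27 (log2; limma adjusted p 0.779), so the class difference moved by 5.07 ± 0.38 between the days (limma adjusted p of the difference 1.90e-14). TNNI1 was already higher in every high purity well on day 6, at 179 to 331 against 120 to 174 TPM, but at 0.72 it was under the fold threshold. The class difference of TNNI1 moved by 2.23 ± 0.20, of TNNI3 by 1.65 ± 0.33 and of TNNC1 by 1.12 ± 0.41. These were 4 of 8 members, beside 7.51% of genes. The TNNC1 value, with an adjusted p of 0.0396, fell under the call with a pseudocount of 0.1 (adjusted p 0.0814). It was also lost without high purity wells 1, 2 or 4 of day 4 or 1 or 4 of day 6, and without low purity wells 1 or 4 of day 4 or of day 6 (log2 0.87 to 1.14).

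From day 8 the order was the reverse of day 4. On day 8 TNNT2 was at 2474, 2874 and 3507 TPM in high and 1328, 1640, 1404 and 1071 TPM in low purity wells. High exceeded low by 1.35 ± 0.29 (log2; limma adjusted p 1.75e-04), and the wells did not overlap. TNNC1 (1.62), TNNI1 (1.77) and TNNI3 (2.85) were called higher in high purity as well, which made 4 of 8 members called, beside 12.2% of genes. The wells of these genes did not overlap either. With a pseudocount of 0.1 TNNT2 fell just short on day 8 (adjusted p 0.0556), day 10 (0.104) and day 13 (0.0834) at nearly the same fold change. On day 10 the single high purity well held TNNT2 at 2101 TPM against 591 to 984 TPM in low purity. The same 4 members were past the threshold there, beside 14.3% of genes, but only with the spread of the other groups assumed for that well, so day 10 is given as values and not as support.

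By the end, high purity wells held more of 4 subunit genes and less of TNNT1. On day 16 TNNT2 was at 3702, 3555 and 2867 TPM in high and 827, 1165 and 1227 TPM in low purity wells. High exceeded low by 1.89 ± 0.31 on the log2 scale (limma adjusted p 2.38e-06). TNNI1 was at 741, 823 and 681 TPM against 219, 296 and 287 TPM (1.71 ± 0.17, limma adjusted p 6.84e-12). TNNC1 was at 1106, 995 and 1120 TPM against 431, 640 and 659 TPM (1.14 ± 0.33, limma adjusted p 0.00453). High and low purity wells were apart for each of these genes, but the exact permutation p was 0.1 for each, the smallest that 3 wells against 3 allow.
TNNT1, the slow skeletal troponin T, was at 28.6, 32.8 and 17.6 TPM in high and 122, 87.0 and 82.3 TPM in low purity wells. It was the only member of the 5 called that was lower in high purity, at −1.65 ± 0.18 (limma adjusted p 8.62e-11). Thus 5 of 8 members were called on day 16, 4 higher and 1 lower, beside 13.4% of genes. TNNT3 (0.97) and TNNI2 (0.92), both from few reads, were just under the fold threshold. On day 13 the same 5 members were called in the same directions, beside 10.8% of genes, with TNNT2 at 1.46, TNNC1 at 1.67, TNNI1 at 1.37, TNNI3 at 1.08 and TNNT1 at −1.42.

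The smallest of these calls were not firm. Without TMM scaling the day 16 values of TNNC1 (0.92) and TNNI3 (0.88) fell under the fold threshold, which left 3 of 8. Without TMM the median of all genes itself (high minus low, log2) lay at −0.18, −0.34, −0.13 and −0.12 on days 8, 10, 13 and 16, and the values given here are relative to that shift. Low purity well 1 of day 16 had the same effect when left out, with TNNC1 at 0.94 and TNNI3 at 0.97. Without high purity well 1 of day 16 TNNI3 was at 0.95. The day 13 call of TNNI3 was lost without TMM (0.89), without high purity well 3 (0.97) or low purity well 1 (0.83), and with the well number as a block (0.98).

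**Figure D2:**
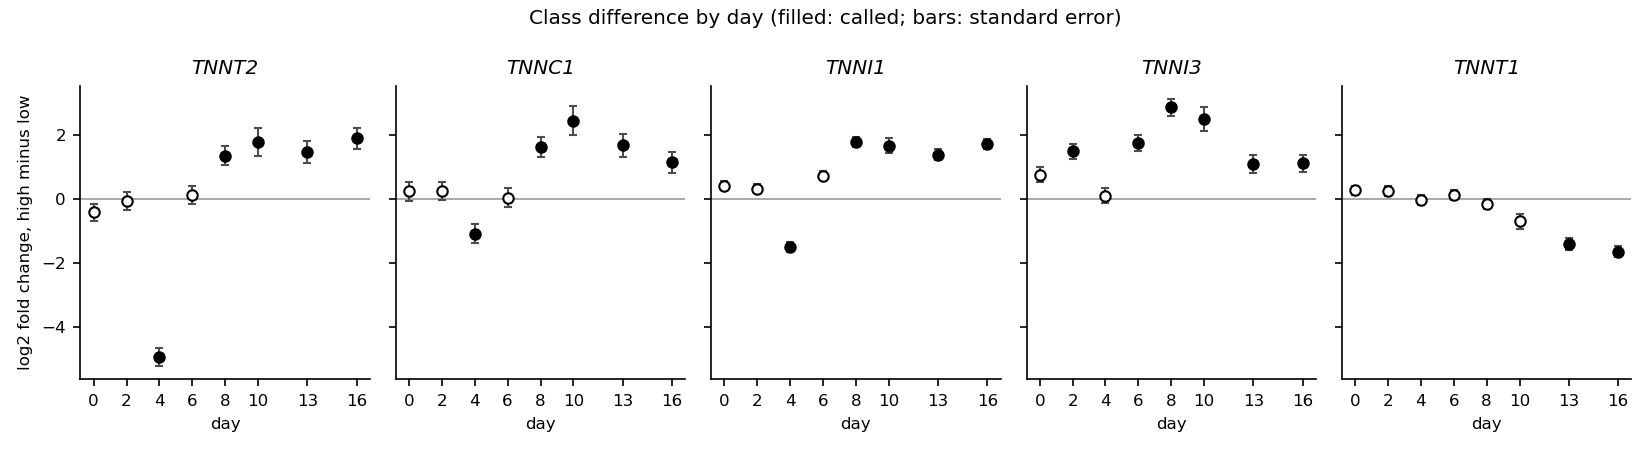
Log2 fold change, high minus low purity, by day for the 5 members with levels above 10 TPM; bars are standard errors of the limma fit, filled points were called and day 10 rests on 1 high purity well. TNNT2, TNNC1 and TNNI1 lie below 0 on day 4 and above 0 from day 8, and TNNT1 falls to −1.65 on day 16.

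TNNI3, the cardiac troponin I of the mature heart, had a course of its own. It was read in undifferentiated cells, at 42.3, 50.8, 48.2 and 48.5 TPM in high purity wells on day 0, and in low purity wells at 21.3, 29.8, 28.0 and 28.3 TPM. The classes did not overlap on day 0, but the log2 fold change of 0.75 ± 0.24 (limma adjusted p 0.0253) was under the fold threshold. No member was called on day 0, beside 1.07% of genes, and edgeR on recovered reads called 0 as well. By limma 2 of 8 members had an unadjusted p under 0.05 there, beside 6591 of all 25664 genes tested. On day 2 TNNI3 was at 59.7, 93.1, 70.0 and 70.3 TPM against 27.2, 24.3, 32.8 and 22.3 TPM. It was the 1 member of 8 called, at 1.49 ± 0.24 (limma adjusted p 1.53e-06), beside 5.32% of genes. TNNI1 was a further call on day 2 with a pseudocount of 0.1 and with edgeR on recovered reads, which made 2, from at most 11 reads a well.

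On day 6 TNNI3 was again the 1 member of 8 called, at 1.75 ± 0.24 (limma adjusted p 4.95e-08), beside 8.8% of genes. It stood at 87.6, 63.4, 61.7 and 67.2 TPM in high and 28.4, 16.9, 16.4 and 18.9 TPM in low purity wells. The gap was widest on day 8, at 206, 272 and 245 TPM against 22.6, 49.9, 58.7 and 30.9 TPM, 2.85 ± 0.26 (limma adjusted p 9.20e-13). On day 16 the wells stood at 290.1, 241 and 221 TPM and at 113, 146 and 148 TPM, 1.10 ± 0.27 (limma adjusted p 8.29e-04). The class difference on day 16 was smaller than on day 8 by 1.75 ± 0.37 on the log2 scale (limma adjusted p of the difference 3.09e-04). TNNT1 moved by −1.50 ± 0.24 and TNNT3 by 1.05 in the same comparison. These made 3 of 8 members beside 9.17% of genes. The TNNT3 value lost its call without TMM (0.92), with edgeR on recovered reads (adjusted p 0.152) and without high purity well 2 of day 8, low purity well 1 of day 16 or low purity well 1 of day 8. Without high purity well 2 or 3 of day 16 TNNT3 no longer passed the filter, and the count was 2.

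The balance of the troponin T genes turned from TNNT1 to TNNT2 between day 2 and day 6. TNNT2 made up 0 to 1.37% of summed TNNT2 and TNNT1 TPM in high and 0 to 1.48% in low purity wells on day 2. On day 4 its share was 7.93% to 18.2% in high and 81.0% to 84.3% in low purity wells, and on day 6 it was 87.0% to 95.3% and 87.7% to 95.1%. On day 16 the share was 99.1% to 99.4% in high and 87.1% to 93.7% in low purity wells. As a log2 ratio of TNNT2 to TNNT1 (1 TPM added to each) the class difference, high minus low, was −4.92 on day 4, 0.01 on day 6 and 3.53 on day 16.

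Troponin I kept the fetal slow form as the larger part. The share of TNNI1 in summed TNNI1 and TNNI3 TPM rose from 1.86% ± 0.22 (SD, n = 4) in high and 1.67% ± 0.88 (SD, n = 4) in low purity wells on day 0 to 78.2% ± 3.41 and 88.1% ± 3.26 on day 6. It then was 74.7% ± 0.34 (SD, n = 3) in high and 86.3% ± 2.87 (SD, n = 4) in low purity wells on day 8. On day 16 it was 71.9% to 77.3% in high and 66.0% to 67.0% in low purity wells. The log2 ratio of TNNI1 to TNNI3, high minus low, was −1.60, −1.03 and −1.08 on days 4, 6 and 8 but 0.61 by day 16, and wells did not overlap on those days.

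These ratios were compared between classes on 7 days each, day 10 left out, with two-sided exact permutation tests. The day 2 difference for TNNI1 to TNNI3 (−1.12) is set by the added 1 TPM, since TNNI1 had 0 to 11 reads a well. With 0.1 TPM added it was −0.087, and the plain share of TNNI1 lay the other way, at 0.39% in high and 0.18% in low purity, so no direction is read from that day. The unadjusted p was 0.0286 on day 2, 4 and 6 for TNNI1 to TNNI3 and on day 0 and 4 for TNNT2 to TNNT1, the smallest that 4 wells against 4 allow. After Benjamini-Hochberg adjustment over the 14 tests the smallest exact permutation p was 0.08, so no ratio passed 0.05 after adjustment. The days with fewer wells could not go below 0.0571 (day 8), 0.133 (day 13) and 0.1 (day 16) before adjustment.

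**Figure D3:**
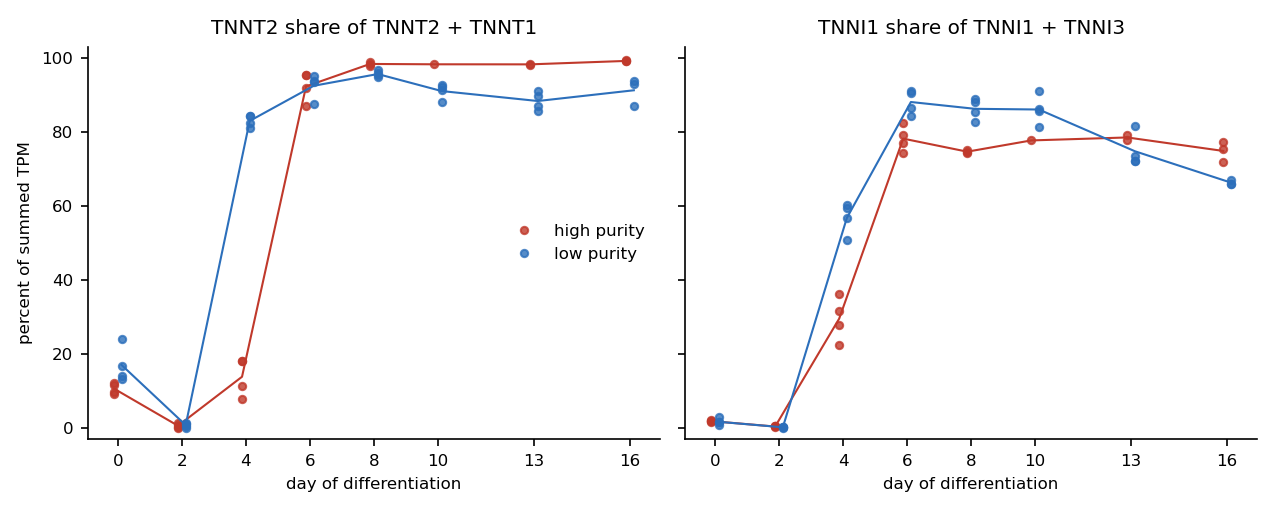
Share of TNNT2 in summed TNNT2 and TNNT1 TPM, left, and of TNNI1 in summed TNNI1 and TNNI3 TPM, right, in percent by day; points are multi-omic wells and lines join group means. On day 4 the TNNT2 share is 81.0% or more in low purity wells and 18.2% or less in high purity wells.

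Summed by subunit, troponin T TPM exceeded troponin I TPM in every multi-omic well. That order rests on the gene lengths within TPM and does not hold for reads in every well. High purity well 2 of day 8 had 20736 reads of TNNT2 and 279 of TNNT1 against 22581 of TNNI1. The ratio of summed troponin T to summed troponin I TPM was 1.92 to 2.41 in high and 6.61 to 7.96 in low purity wells on day 4. It was 3.13 to 4.79 against 5.38 to 6.62 on day 6, without overlap, and 3.20 to 3.62 against 2.83 to 3.00 on day 16. Low purity was already above on day 0, at 1.02 to 1.19 in high and 1.40 to 2.11 in low purity wells. The ratio was 1.38 to 2.09 against 3.53 to 4.45 on day 2, and 2.74 to 3.69 against 4.30 to 6.86 on day 8. Summed troponin C over troponin I rose from 0.0601 to 0.165 in high and 0.0675 to 0.255 in low purity wells on day 0 to medians of 1.48 and 1.88 on day 8. These ratios describe RNA levels per length and were not tested.

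**Figure D4:**
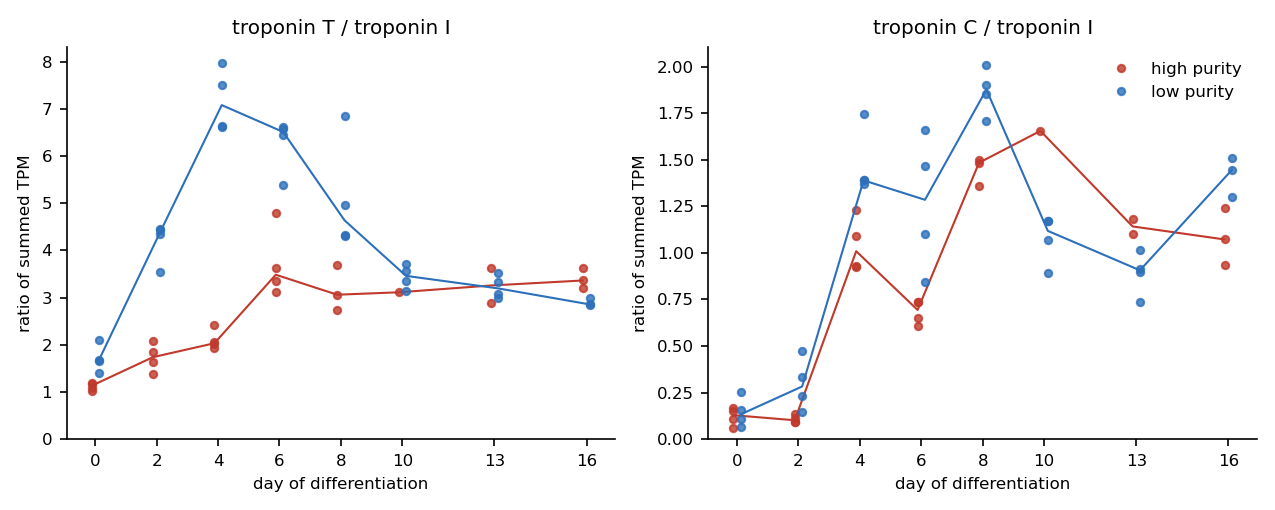
Ratio of summed TPM of troponin T genes, left, and of troponin C genes, right, to summed TPM of troponin I genes, by day; points are multi-omic wells and lines join group medians. The low purity wells lie above the high purity wells for T over I on days 0, 2, 4, 6 and 8, and below them on day 16.

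Other thin filament genes shared the day 4 contrast in part. Of a list of 15 such genes, 5 were called lower in high purity on day 4 and 0 higher, beside 7.84% of all genes called. The median log2 fold change of the list was −0.36, beside a median of 0 over all genes. ACTC1, cardiac actin, was at 49.2 to 64.5 TPM in high and 1453 to 2022 TPM in low purity wells (−4.84 ± 0.15). SYNPO2L, an actin-binding protein of the sarcomere, was at −3.96 ± 0.15, and TPM1, the main cardiac tropomyosin, at −2.68 ± 0.08. On day 16 the list had 3 genes called higher and 2 lower, beside 13.4% of all genes called. Its median was 0.11, beside 0 over all genes. TMOD1, which caps the pointed end of thin filaments in muscle, was at 139 to 145 TPM in high and 27.8 to 43.9 TPM in low purity wells (2.15 ± 0.25). TPM4, a tropomyosin of non-muscle cells, was at 68.9 to 93.4 TPM against 422 to 461 TPM (−2.25 ± 0.08). NEBL, the cardiac nebulette, followed at 1.84 ± 0.22. ACTC1 on day 16 was at 0.53 and was not called.

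Markers of cell types also differed between the classes, and their part in the troponin differences was not tested. In bulk RNA fewer cells of a type and less RNA per cell cannot be told apart. Markers counted below as higher or lower were called, beside 7.84% of all genes called on day 4 and 13.4% on day 16. On day 4, 7 of 10 cardiomyocyte markers other than troponins were lower in high purity, and the summed level of the list was 116 to 172 TPM in high and 1156 to 1345 TPM in low purity wells. On day 16, 4 of 10 were higher in high purity, and the sums were 9119 to 10195 and 3767 to 5788 TPM. Of 6 stromal markers 4 were lower in high purity on day 4 and 5 on day 16, where the sums were 454 to 542 TPM in high and 8585 to 11634 TPM in low purity wells. None of the 6 was at 0 in a class on day 16, and DCN was at 0 in the high purity wells of day 4. Of 4 smooth muscle markers 3 were tested, and all 3 were lower in high purity on both days, with sums of 187 to 202 and 1145 to 1266 TPM on day 16. MYH11, the myosin of smooth muscle, was at 0 in every well of both days. The skeletal muscle list of 13 genes on day 16 summed to 18.7 to 23.1 TPM in high purity wells and to 2.25 to 5.11 TPM in low. Of this list 8 genes were tested, with 3 called higher in high purity (RYR1 2.78, ACTN3 2.23 and MYH4 1.11, log2) and 0 lower. MYF5, MYF6 and PAX7 were at 0 in every well of that day, and MYOD1 and MYH1 also in high purity. Of 4 endothelial markers 3 were higher and 1, TEK, was lower in high purity on day 16, while their sums were 12.2 to 19.0 TPM in high and 41.0 to 47.1 TPM in low purity wells. Of 5 pluripotency markers tested, 3 were higher in high purity on day 4, where the sums were 1833 to 2433 and 947 to 1078 TPM, and 1 on day 16.

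Across all 56 multi-omic libraries the members were compared with the 13366 genes that reached a mean of 10 TPM in some group. The 5 genes most like TNNT2 by Pearson's r of log2(TPM + 1) were TPM1 (0.98), ACTC1, UNC45B, SLC8A1 and SMYD1. For TNNI1 they were FILIP1 (0.99), TRIM55, SMYD1, DENND5B and DPF3, and for TNNC1 TRIM55 (0.98), COL2A1, PDE4D, MYL7 and TMX4. Among themselves TNNT2, TNNI1 and TNNC1 had r from 0.94 to 0.98. TNNI3 had r of 0.41 to 0.52 with these 3, and its nearest genes were ALKBH5 (0.91), OBSL1, BCKDHA, ENG and LOC101929705. TNNT1 had negative r with the other 4 members, from −0.36 to −0.25, and its nearest were SERPINE2 (0.89), AMOTL1, TLE3, SEZ6L2 and EGFLAM. These values are descriptions, since libraries of a differentiation share their day and culture.

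The RNA-only experiment also showed the onset of TNNT2 and TNNI1 in each of the 6 differentiations, and that of TNNC1 in the fit over 3 lines. In low purity H9, TNNC1 did not come on: it was at 6.31 TPM on day 0, 13.1 TPM on day 3, 4.83 TPM on day 5 and 8.69 TPM on day 7. TNNT2 was at 1.17 to 5.12 TPM on day 0 in the 6 differentiations, at 0 to 1.58 TPM on day 2 or 3 and at 46.3 to 397 TPM on day 6 or 7. The log2 change from day 0 to day 6 or 7 was 6.76 ± 1.30 for TNNT2, 8.33 ± 1.26 for TNNI1 and 4.64 ± 0.83 for TNNC1 in high purity. For edgeR values ± is an approximate SE, the size of the change over the square root of its F statistic. By edgeR's quasi-likelihood test with the differentiation as a term the adjusted p was 6.24e-04, 9.58e-05 and 3.60e-04. In low purity the changes were 5.38 ± 1.23, 7.90 ± 1.26 and 3.60 ± 0.84 (edgeR adjusted p 0.00254, 1.74e-04 and 0.00307). TNNI2, at 0 to 9 reads, did not pass the filter on low counts, which left 7 members. TNNT3 was called in high purity (5.12), from at most 46 reads and with 0 to 1 reads on day 0, a call lost without H9 or without IMR90-4. This gave 4 of 7 members in high purity beside 35% of genes and 3 of 7 in low purity beside 30.7%. DESeq2 called 5 in low purity, with TNNT3 and TNNC2 added. Without IMR90-4 the TNNT2 change in low purity was 4.77 with an edgeR adjusted p of 0.0578.

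At the earlier steps TNNT1 rose in both classes, and TNNT2 fell past the threshold in high purity. On day 2 or 3 TNNT2 fell by 5.00 in high purity and TNNT1 rose by 1.30 (log2; edgeR adjusted p 0.0331 and 0.00265), for 2 of 7 members beside 18.4% of genes. In low purity TNNT1 (1.06) and TNNC2 (−2.74) were the 2 of 7 called, beside 17.6% of genes. Neither class kept a call without IMR90-4, and TNNC2 in low purity also lost its call without H9 and without the differentiation as a block. The TNNT2 call was also lost without WTC11 and with limma on TPM (−1.72, adjusted p 0.141). In low purity the TNNT2 change was −3.20 with an edgeR adjusted p of 0.0818, and low purity H9 went from 1.26 to 1.58 TPM. On day 4 or 5 TNNI1 was called in both classes (4.55 in high, 4.19 in low), and so was TNNC2 (−3.48 and −4.35). High purity added TNNT3 (4.67) and TNNI3 (−1.21), for 4 of 7 members beside 30.9% of genes, and low purity had 2 of 7 beside 27.3%. The calls of TNNT3 and TNNI3 were both lost without H9 and without IMR90-4, and that of TNNI3 also without WTC11 and without the differentiation as a block (adjusted p 0.107). In low purity the count was 4 without H9 and 1 without IMR90-4.

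TNNC2 differed in level between the experiments. It was at 11.05 to 18.9 TPM (153 to 336 reads) on day 0 in the RNA-only libraries and at 0 to 3.56 TPM (0 to 10 reads) on day 0 in the multi-omic wells. The kits differ (total RNA against poly(A)) and the tables were normalized separately, so these 2 levels are set side by side without a test. TNNI3 was present on day 0 in all 3 lines, at 11.8 to 56.5 TPM. Unlike TNNT2, it did not pass the test above day 0 at any RNA-only step.

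No class difference passed in the RNA-only experiment. At each of the 4 steps edgeR called 0 of 7 members, beside 0% of genes. Members at an unadjusted edgeR p under 0.05 numbered 0, 0, 0 and 2, beside 354, 1896, 1798 and 2876 of all 23848 genes. On day 6 or 7 TNNT2 was higher in high purity in 3 of 3 lines, at 210.6 against 46.3 TPM in H9, 397 against 255 TPM in IMR90-4 and 333 against 123 TPM in WTC11 (log2 1.41 ± 0.71, edgeR adjusted p 0.458). TNNI1 was higher in 3 of 3 lines, at 204 against 38.7, 274 against 267 and 179 against 70.8 TPM (1.25 ± 0.51, edgeR adjusted p 0.37). TNNT1 was lower in 3 of 3 lines, at 80.7 against 91.2, 65.2 against 106 and 67.7 against 118 TPM (−0.57 ± 0.25, edgeR adjusted p 0.405). TNNC1 was at 99.2 against 8.69 TPM in H9, 391 against 686 TPM in IMR90-4 and 177 against 118 TPM in WTC11, so its direction differed between lines. On day 2 or 3 the lines leaned the other way: TNNT2 was lower in high purity in 3 of 3 lines, at 0 to 44 reads (−2.88, edgeR adjusted p 0.67). TNNC1 was lower in 3 of 3 as well, at 8.13 against 13.1 TPM in H9, 41.8 against 76.4 TPM in IMR90-4 and 7.65 against 15.9 TPM in WTC11 (−0.91, edgeR adjusted p 0.766). The difference of class differences between day 6 or 7 and day 0 was called for 0 of 7 members, beside 0% of genes. DESeq2 called 0 members as well in these class comparisons.

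**Figure D5:**
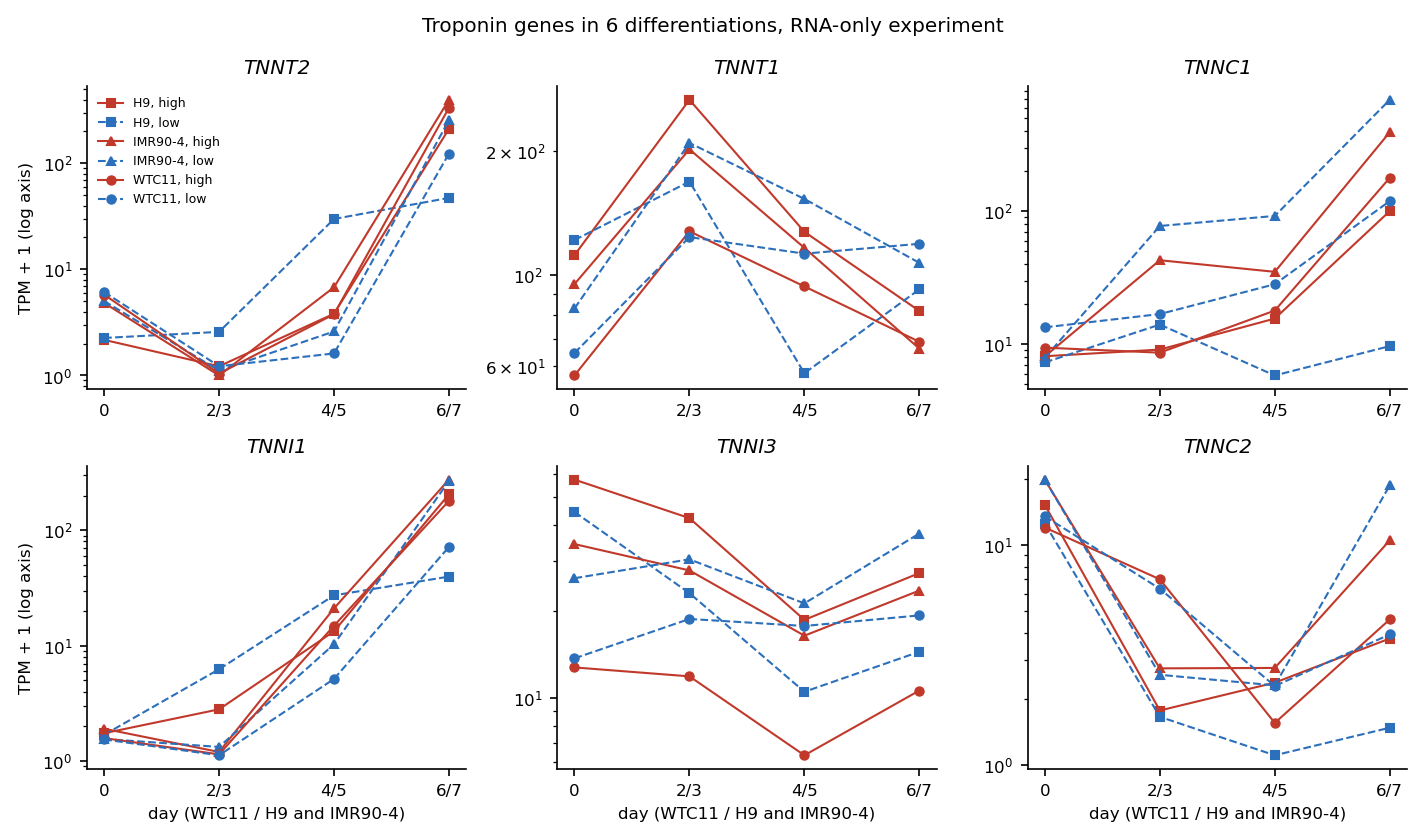
TPM + 1 on a log axis by step for 6 troponin genes in the RNA-only experiment; each point is 1 library, red solid lines are high purity, blue dashed lines low purity, and marker shape gives the line. TNNT2 rises to 46.3 TPM or more in all 6 differentiations on day 6 or 7, and TNNC2 is at 11.05 to 18.9 TPM on day 0.

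The isoform shares of the lines leaned the same way in each on day 6 or 7. TNNT2 made up 72.3%, 85.9% and 83.1% of summed TNNT2 and TNNT1 TPM in high purity H9, IMR90-4 and WTC11, and 33.7%, 70.6% and 51.0% in low purity. TNNI1 made up 88.6%, 92.4% and 94.9% of summed TNNI1 and TNNI3 TPM in high purity and 74.2%, 88.0% and 79.4% in low purity. In the multi-omic wells of day 6 the TNNI1 share was lower in high purity, as given above, so the 2 experiments differed in the direction of that ratio. With 1 library per line and class, an unpaired exact test of 3 against 3 could not go below 0.1, and paired by line its floor is higher. These shares were not tested.

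The day 4 order of TNNT2 was not the same in the RNA-only experiment. In H9 the day 5 library of high purity held TNNT2 at 2.82 TPM and that of low purity at 28.9 TPM. In IMR90-4 it was at 5.79 and 1.60 TPM on day 5, and in WTC11 at 2.78 and 0.613 TPM on day 4, so 1 of 3 lines had more in low purity. Without H9 TNNT2 was called higher in high purity at this step (log2 1.88, edgeR adjusted p 0.0184), the 1 member called. That fit leaves out the only line with the opposite order, and its share of all genes called is not given, so no direction is read from it. WTC11 low purity carried passage 69 in both experiments, with TNNT2 at 457 to 524 TPM on day 4 in the multi-omic wells and at 0.613 TPM (32 reads) in the RNA-only library. Over 25641 genes the 4 low purity wells of day 4 had r of 0.825 to 0.831 with the RNA-only low purity WTC11 library of day 4 and 0.840 to 0.847 with that of day 6. Their r with the RNA-only high purity WTC11 libraries was 0.849 to 0.853 for day 4 and 0.841 to 0.847 for day 6, so the closest library was of day 4 but of the other class. The low purity wells of day 2 (0.876 to 0.881 with high, 0.854 to 0.859 with low) and of day 6 (0.820 to 0.836 and 0.817 to 0.830) also had higher r with the high purity library of their day. The 4 high purity wells of day 4 had r of 0.873 to 0.892 with the RNA-only high purity library of day 4 and 0.845 to 0.865 with that of day 6. The part of timing, passage or library labels in the day 4 difference was not tested.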

How the data were processed

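The authors deposited, per experiment, a table of read counts per gene (not normalized) and a table of TPM. STAR 2.5.3a, featureCounts 2.0.3 and hg38 are named per the submitters' processing notes; how TPM was computed, the annotation and the strand setting are not given in the sources used here. The members, lists and tests were chosen with earlier results of these data known. Names did not match between the 2 multi-omic tables: 0 of 56 columns agreed under their own name, 50 counts columns fitted another TPM column and 6 fitted none. The TPM names were used, since 32 of 32 TPM columns of days 0 to 6 were nearest to an RNA-only WTC11 library of the same day, against 6 of 32 count columns. That check bears on the day and not on the class, since low purity wells of days 2, 4 and 6 were nearer to the high purity library. Reads were recovered from the TPM for 35377 of the 43388 genes. These genes were selected by whether their values were whole within 0.05. The 100% of whole nonzero values among them is set by that selection and is no check of the recovery. Libraries held 6579715 to 18143597 reads (multi-omic, median 11381644.5) and 17990882 to 40357968 reads (RNA-only), which limits genes with few reads. From the RNA-only counts 36 broken lines were dropped.

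Multi-omic TPM was scaled with TMM, 1 was added, and log2 values of 25664 genes, kept where 3 or more libraries reached 1 TPM, were fitted with limma 3.58.1 in R 4.3.3 (16 group means, 40 residual degrees of freedom). RNA-only counts of 23848 genes were fitted with edgeR 4.0.16 (quasi-likelihood, TMM). The line was a block for class differences, and the differentiation for changes over time. Single values were compared by exact permutation tests with scipy 1.17.1. The scripts were tested on simulated data. Named genes were the 8 members, the 5 genes most like each of the 5 well-read members, and the 3 largest called thin filament genes on day 4 and day 16. ACTC1 on day 16 and the cell type markers named singly were added after their values were seen. Alternatives were other pseudocounts, scalings, filters and tools (DESeq2 1.42.0 for counts), blocks, and leaving out wells or lines. Promoters came from RefSeq (GRCh38.p14), which held 3 members.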

Additional observations from a re-analysis of the deposited data

Results flagged for a closer look

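Among 56 pairs of a member and a group of 4 wells with a mean of at least 1 TPM, 3 had a well far from the other 3; chance flags about 1 in 20 such groups. TNNC1 had 66.3 TPM in a high purity well of day 4 and 182 TPM in a low purity well of day 13. TNNC2 had 3.30 TPM in a low purity well of day 8.

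The class difference changed between days by a test of the change itself for 7 values. From day 4 to day 6 it moved by 5.07 for TNNT2, 2.23 for TNNI1, 1.65 for TNNI3 and 1.12 for TNNC1 (log2). From day 8 to day 16 it moved by −1.75 for TNNI3, −1.50 for TNNT1 and 1.05 for TNNT3, the last from at most 32 reads a well and in a gene that passed the filter mainly through its high purity day 16 wells.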

How the results depend on the processing

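With a pseudocount of 0.1 the members called became 2 in place of 1 for the class difference on day 2 and 4 in place of 2 for high purity on day 2 against day 0. edgeR on recovered reads also gave 2 for the class difference on day 2. Without scaling beyond TPM, 3 in place of 5 were called between classes on day 16 and 1 in place of 2 for high purity on day 16 against day 8, where edgeR on recovered reads also gave 1. DESeq2 called 5 in place of 3 for low purity on day 6 or 7 against day 0.

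When 1 well or line was left out at a time, the count was 3 to 7 between classes on day 16, 0 to 2 for high and 1 to 2 for low purity on day 16 against day 8, and 2 to 4 for high purity on day 4 against day 0. In the RNA-only experiment it was 0 to 1 between classes on day 4 or 5 and 0 to 3 on day 2 or 3 against day 0 in each class. On day 4 or 5 against day 0 it was 2 to 3 in high and 1 to 4 in low purity.

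The direction of 3 values turned. The RNA-only class difference of TNNC1 on day 6 or 7 (0.96) was −0.28 with no replicate block and −0.068 to 1.99 when a line was left out, the lowest without H9. The class difference in the log2 ratio of TNNI1 to TNNI3 on day 0 (−0.40) was 0.13 with a pseudocount of 0.1. That of TNNT2 to TNNT1 on day 6 (0.01) was −0.28 to 0.34 when wells were left out.

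Well numbers recur in the labels across groups but share only a number: deviations correlated at 0.0114 on average between same-numbered wells, −0.291 at the lowest. With the well number as a replicate block TNNI3 on day 13 fell to 0.98, and the other 68 of 69 called member values kept their call. With no replicate block for the RNA-only lines, 1 in place of 2 members was called in low purity on day 2 or 3. The causes were not tested. TNNT3, TNNI2 and TNNC2, with at most 32 reads in a multi-omic well, are limited by depth.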
